A study of Mus musculus with 4 samples.

Results

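The deposited miRNA tables of exosomes from the small intestinal epithelium (SI-Exos) and from serum list, beside known miRNAs, mature sequences that the authors' pipeline predicted and numbered itself. All rows with such a name were taken, which gave 63 of the 373 miRNAs in the SI-Exos table and 79 of the 611 in the serum table. Together they are 100 different predicted miRNAs of 668 miRNAs, and 42 of them stand in both tables under the same name with the same mature sequence. They are written here with the prefix predicted in place of the prefix in the files, as in predicted-miR53-5p. The exosomes came from male C57BL/6J mice of 3 and of 18 months of age and were collected by ultracentrifugation, with 1 small RNA library for each source and age (3m-SI-Exos, 18m-SI-Exos, 3m-serum-exos and 18m-serum-exos). Whether mice were pooled for a library is not stated in the sources used here. The labels name an MGI library kit and a DNBSEQ instrument, and the methods of the study another kit and a HiSeq instrument. With 1 library per group no difference between ages has a replicate check, and every interval given covers counting error only.

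A miRNA is cut from one arm of a short RNA hairpin by the nucleases Drosha and Dicer, and the resulting mature strand guides Argonaute proteins to target mRNAs through its seed, the bases near its 5′ end. Programs that predict miRNAs look for reads stacked on one arm of a sequence that can fold into a hairpin. Short fragments of other RNAs, such as small nucleolar RNAs (snoRNAs), tRNAs, rRNAs or transcribed repeats, can meet the same criterion, so predicted miRNAs are usually examined for their length, sequence and place in the annotation.

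Depth was 212215 reads on miRNAs in 3m-SI-Exos, 71353 in 18m-SI-Exos, 832002 in 3m-serum-exos and 778237 in 18m-serum-exos. Counts were scaled to 1000000 of these reads (CPM), so that a single read was worth 4.71 and 14 CPM in the younger and older SI-Exos library and 1.20 and 1.28 CPM in the serum libraries. The miRNA reads were 1.14% and 0.411% of the totals behind the authors' RPM (reads per 1000000 of a wider total) in SI-Exos, and 5.89% and 5.31% in serum exosomes. On that wider scale the ratios of 3 to 18 months in SI-Exos were 2.78-fold larger for every miRNA, and those in serum exosomes 1.11-fold larger.

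In the 3m-SI-Exos library, 3372 reads fell on predicted miRNAs, 1.59% of the miRNA reads (exact 95% interval 1.54 to 1.64%). In the 18m-SI-Exos library they took 7090 reads, or 9.94% (9.72 to 10.2%). The share was thus 6.25-fold higher at 18 months (6.00 to 6.52), and of the totals behind the RPM it was 0.0181% and 0.0408%. Serum exosomes held far fewer, with 1074 reads at 3 months (0.129%, interval 0.121 to 0.137%) and 305 at 18 months (0.0392%, 0.0349 to 0.0438%). There the share was 3.29-fold higher at 3 months (2.90 to 3.75). A single sequence took a large part of the reads in 2 of the libraries, 58.7% of the predicted reads in 18m-SI-Exos and 50.4% in 3m-serum-exos, and the 5 leading sequences took 80.2% and 77.2%.

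Most predicted miRNAs were close to the limit of detection. At least 1 read was present for 55 and 39 of the 63 in the younger and older SI-Exos library (31 in both), and for 58 and 55 of the 79 in serum exosomes (34 in both). Of the 100, 38 reached 10 reads in at least 1 library, 62 never did, and 20 rested on a single read over all 4 libraries. Only 15 had a read in every library, and predicted-miR365-5p alone had at least 10 reads in each of the 4.

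The mature sequences differed in build from those of the known miRNAs in the same tables. Known mature sequences had a median length of 22 bases, and 89.3% of them were 21 to 23 bases long. The predicted ones had a median of 19 bases, only 30 of the 100 were 21 to 23 bases long, and 39 were exactly 18 bases, the shortest length in the tables, a length held by 0.355% of known miRNAs. The median share of G and C was 55.6% against 47.8%, and 23 of the 100 consisted of G and C to at least 80%, against 0.888% of known miRNAs. Known mature strands began most often with U (43.2%) and seldom with G (8.88%), whereas 32 of the predicted began with U and 31 with G. Their median G content alone was 43.7%, against 23.8%.

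**Figure D1:**
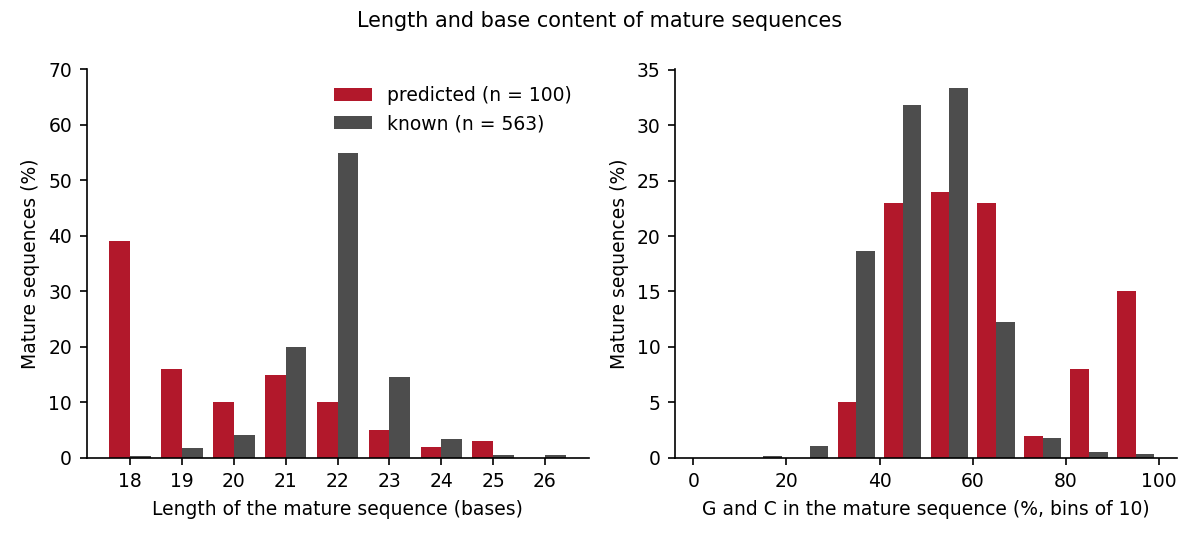
Length in bases (left) and share of G and C (right, in bins of 10 percentage points) of the mature sequences, as a percentage of the 100 predicted (red) and the 563 known miRNAs with a mature sequence (grey). Of the predicted sequences 39% are 18 bases long and 23% lie at or above 80% G and C, where 0.888% of known miRNAs lie.

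The hairpins listed for the predicted miRNAs also differed from those listed for known miRNAs. Whether both sets of hairpins were delimited in the same way is not stated in the sources used here. The values below therefore describe the hairpins as listed. All 100 mature sequences lay directly at an end of the listed hairpin, as 9.95% of the known ones did, and the hairpins had a median of 58 bases against 82. Folded with RNAfold, the hairpins reached a median minimum free energy of -39.1 kcal/mol per 100 bases, against -43.0 for those of known miRNAs. The mature strand was paired over a median of 72.2% of its bases (quartiles 63.2 and 78.4%), against 82.6% (78.3 and 87.0%) in known miRNAs. In 4 predicted hairpins, against 1 known, under 50% of the mature bases were paired. The arms were 55 5p and 45 3p, and both arms were listed for 5 hairpins.

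**Figure D2:**
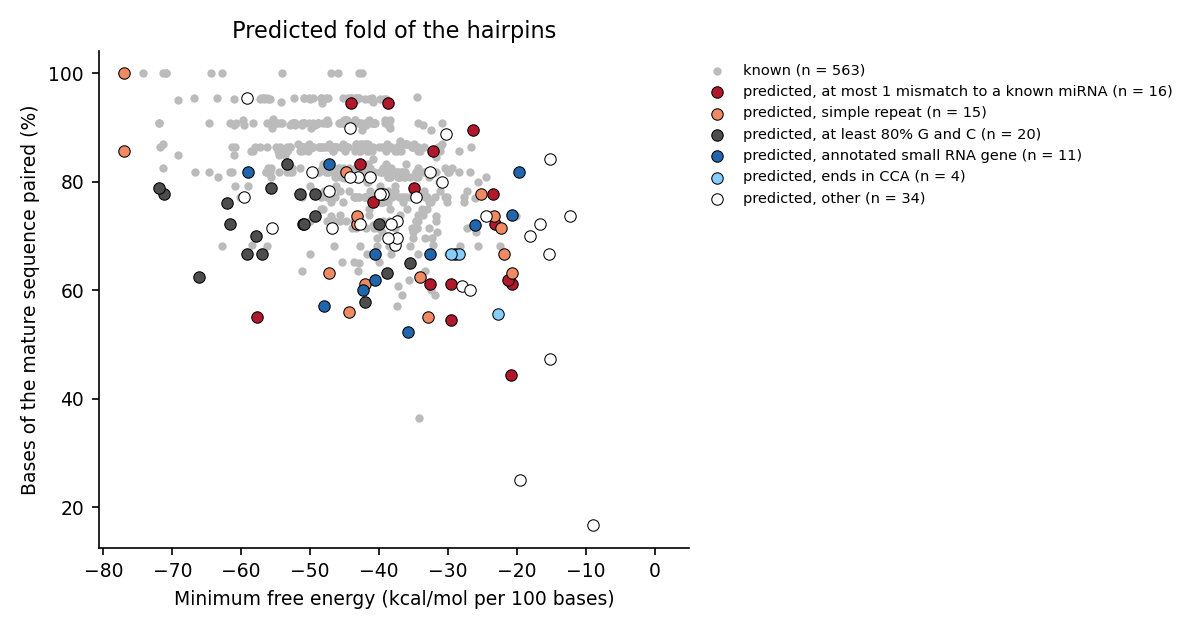
Minimum free energy of each listed hairpin per 100 bases (horizontal, kcal/mol) against the percentage of bases of the mature sequence that are paired in that fold (vertical), with known miRNAs in grey and predicted miRNAs coloured by kind of sequence. Predicted miRNAs lie lower on the pairing axis, with a median of 72.2% against 82.6%, and the sequences with at least 80% G and C have the lowest median energy of the kinds, -52.4 kcal/mol per 100 bases.

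Each mature sequence was compared with known mature miRNAs and with the GRCm38 transcripts of the GENCODE M21 annotation. None was identical to a known miRNA of the tables, but 22 matched one with at most 1 mismatch over at least 16 bases, 14 of them without a mismatch, and 30 carried the seed (bases 2 to 8) of a known miRNA. An exact full-length match in an annotated transcript was found for 53, in 1 gene for 13 of them and in over 100 genes for 19. The listed hairpin as a whole matched a transcript for only 20 of the 100. A match of the mature sequence is therefore not always a match of the predicted hairpin. As a check of the search, 98.8% of the known miRNAs matched an annotated miRNA gene. From these properties 6 exclusive kinds were formed, in the order given: 15 simple repeats of a unit of up to 4 bases, 16 others within 1 mismatch of a known miRNA, 11 others in an annotated small RNA gene, 4 others that end in CCA, 20 others with at least 80% G and C, and 34 without any of these. Only 1 known miRNA was such a repeat.

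The kinds did not share the reads evenly. In SI-Exos at 3 months, simple repeats held 46.1% of the predicted reads (exact 95% interval 44.4 to 47.8%), and sequences close to a known miRNA held 22.7% (21.3 to 24.1%). At 18 months the order was the other way round, with 22.7% (21.7 to 23.6%) and 63.2% (62.0 to 64.3%). A single sequence close to a known miRNA, predicted-miR53-5p, held 19.3% and 58.7% at 3 and 18 months. Sequences matched in over 100 genes, which stand in several kinds, held 66.1% and 83.0%. Serum exosomes at 3 months were led by the GC-rich kind with 57.7% (54.7 to 60.7%), followed by small RNA genes with 18.4% (16.2 to 20.9%). At 18 months those kinds held 13.4% (9.82 to 17.8%) and 13.1% (9.54 to 17.4%).

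**Figure D3:**
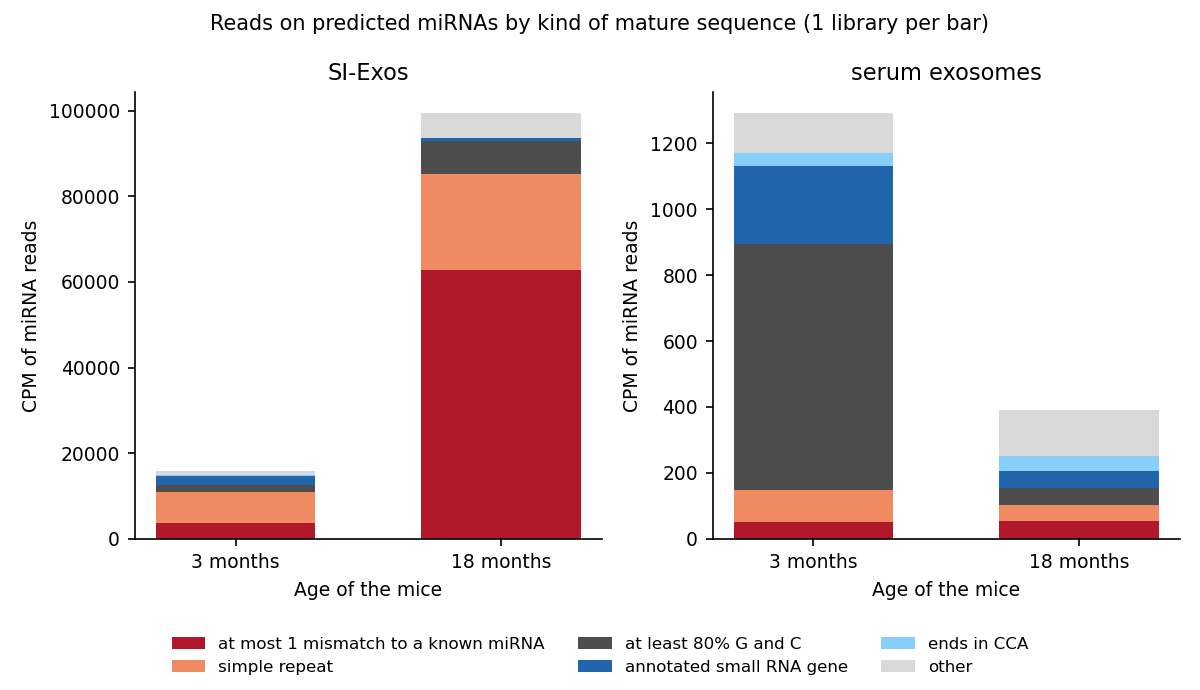
Stacked CPM of predicted miRNAs in the 4 libraries, 1 library per bar, with SI-Exos on the left and serum exosomes on the right on their own scales, coloured by kind of mature sequence. The 18m-SI-Exos bar consists mostly of sequences close to a known miRNA (62758 CPM) and the 3m-serum-exos bar mostly of GC-rich sequences (745 CPM).

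Levels at 3 months were divided by levels at 18 months for miRNAs with at least 10 reads in 1 library of the source. Calls required a change of 2-fold or more in either direction, or no read at one of the ages, together with an exact 95% interval that left out 1. In SI-Exos, 33 of the 63 predicted miRNAs were measured in this way, and 11 were called higher and 17 lower at 3 months. Over all 214 measured miRNAs of the table, 32.7% were called higher and 29.4% lower, so that the predicted ones had about the same share of higher calls (33.3%) and a larger share of lower calls (51.5%). With the totals behind the authors' RPM, 13 were called higher and 11 lower. The shares over all measured miRNAs given here hold for totals of miRNA reads, so these counts have no like share beside them. With totals of miRNA reads, the median log2 ratio of the predicted ones was -1.35, that of known miRNAs 0.52 and that of all measured miRNAs 0.45.

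In serum exosomes, 14 of the 79 were measured. Here 6 were called higher and 2 lower at 3 months, shares of 42.9% and 14.3% beside 18.3% and 25.9% over all 251 measured miRNAs. Under TMM factors, DESeq2 size factors, the authors' RPM totals or totals without the 5 most abundant miRNAs, no predicted miRNA was called lower, and 6, 6, 6 and 7 were called higher. The shares of 18.3% and 25.9% do not apply to those settings. With totals of miRNA reads, the median log2 ratio of the predicted ones was 0.91, against -0.39 for known miRNAs and -0.38 for all.

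Of the 11 called higher at 3 months in SI-Exos, 8 had no read at 18 months. With a floor of 3 reads (42.0 CPM) in place of 0, they were 1.57-fold to 5.72-fold higher. Values given below as at least so many fold use this floor and are not limits of an interval. The exact 95% intervals reach lower, to 1.12 for predicted-miR205-5p and to 4.48 for predicted-miR380-5p. The other 3 were 2.91-fold to 4.21-fold higher. Of the 17 called lower, 16 had reads at both ages and were 2.54-fold to 25-fold higher at 18 months. Reads of sequences of 18 bases made up 55.4% of the predicted reads at 3 months (53.7 to 57.1%, exact 95% interval) and 82.1% at 18 months (81.2 to 83.0%). Without predicted-miR53-5p, the sequence with the most reads and itself of 18 bases, they made up 44.7% (42.8 to 46.6%) and 56.6% (54.8 to 58.4%). In serum exosomes they made up 67.0% (64.1 to 69.8%) and 48.9% (43.1 to 54.6%), but without predicted-miR365-5p, which had the most reads over both ages, 33.6% (29.6 to 37.8%) and 43.9% (38.0 to 49.9%), which turned the order of the ages.

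**Figure D4:**
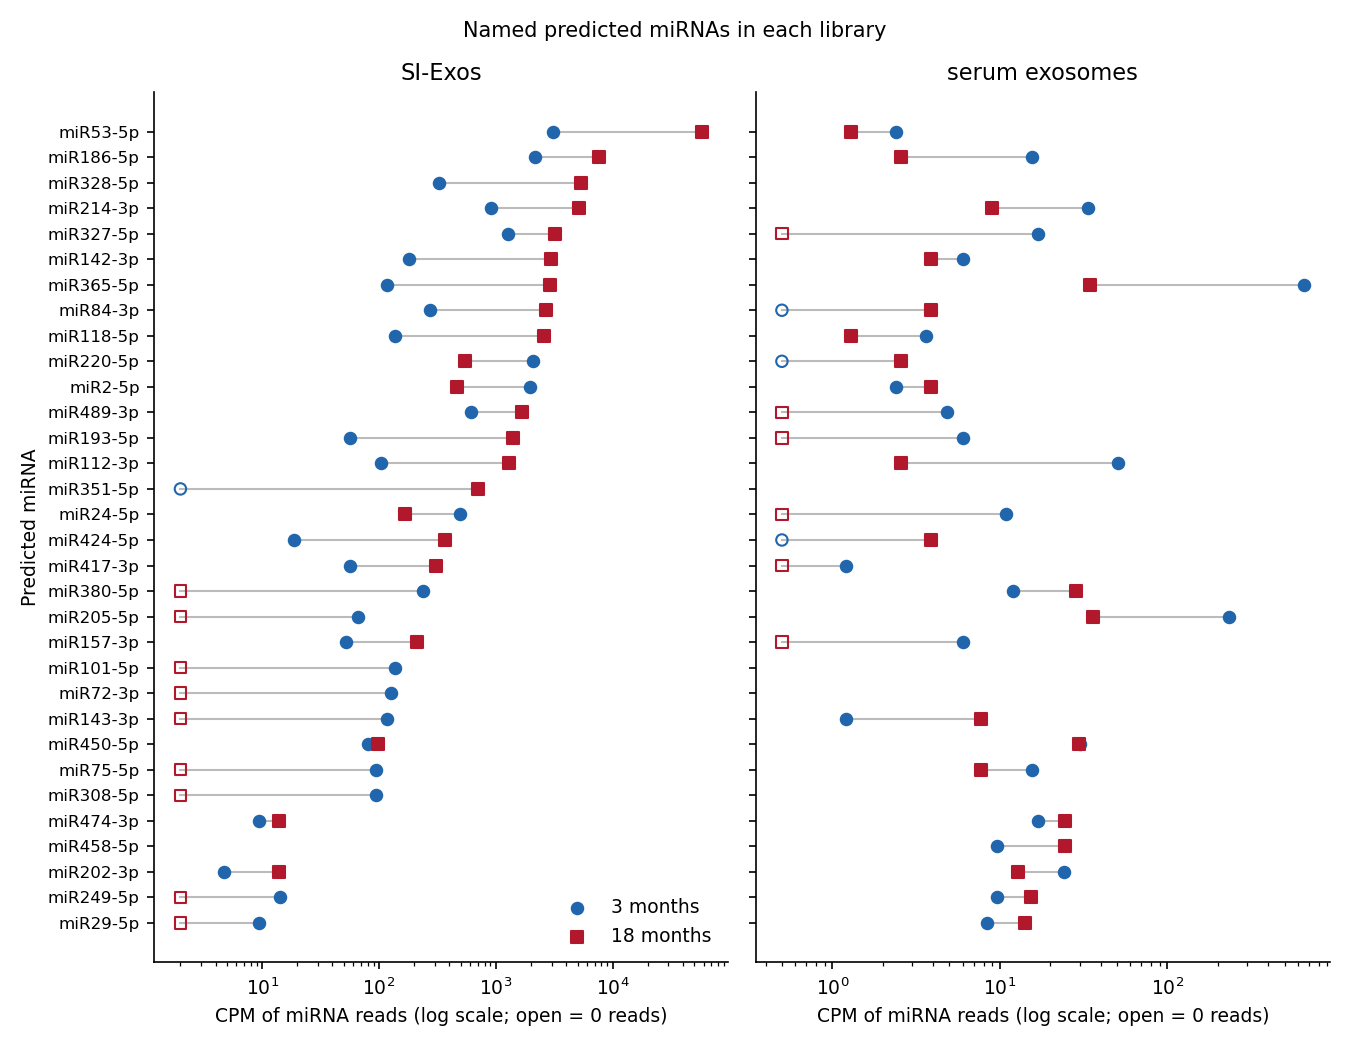
CPM of miRNA reads on a log scale for the 32 predicted miRNAs named by rule, at 3 months (blue circles) and 18 months (red squares) in SI-Exos (left) and serum exosomes (right), with open symbols for 0 reads and no symbol where the table has no such row. predicted-miR53-5p leads 18m-SI-Exos at 58330 CPM and has 2.40 and 1.28 CPM in serum exosomes, where predicted-miR365-5p leads at 650 CPM.

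The most abundant predicted miRNA of SI-Exos was predicted-miR53-5p, with 651 reads at 3 months and 4162 at 18 months, beside 2 and 1 reads in serum exosomes at 3 and 18 months. Its level in SI-Exos was 3068 and 58330 CPM, 19.0-fold higher at 18 months (exact 95% interval 17.5 to 20.7). All of its 18 bases are found in the known miR-3473b without a mismatch and with the same seed, and they recur exactly in transcripts of 418 annotated genes, 18 of them small RNA genes. The row of miR-3473b itself had only 7 and 0 reads in SI-Exos.

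There are 4 further predicted miRNAs that overlap miR-3473b over at least 16 bases without a mismatch. predicted-miR193-5p had 12 and 101 reads in SI-Exos and 5 and 0 in serum exosomes, and was 25-fold higher at 18 months in SI-Exos (13.7 to 50.1). predicted-miR417-3p had 12 and 22 reads in SI-Exos and 1 and 0 in serum exosomes, which made it 5.45-fold higher at 18 months in SI-Exos (2.58 to 12.1). With the RPM totals its ratio of 3 to 18 months was 0.509 and was not called. The remaining predicted-miR40-5p and predicted-miR74-5p had 2 and 1 reads at 3 months, none at 18 months, and no row in the serum table. Added up, the 5 held 678 and 4285 reads in SI-Exos, 20.1% and 60.4% of all predicted reads, and were 18.8-fold higher at 18 months (17.3 to 20.4). In serum exosomes they held 8 reads and 1 read. Since these sequences overlap, reads may be divided between their names in a way that depends on the authors' counting, and each single value is uncertain for that reason.

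A different known miRNA gene is matched by predicted-miR84-3p, whose 18 bases are part of the mature miR-29b-2-5p of RefSeq (GRCm38.p6) without a mismatch. They match Mir29b-2 on the plus strand (GRCm38 chr1:195037050-195037067, also within a retained-intron transcript of A330023F24Rik). The listed hairpin of predicted-miR84-3p matched no annotated transcript, and its name gives the 3p arm. predicted-miR84-3p had 58 and 191 reads in SI-Exos, and 0 and 3 reads in serum exosomes. It was 9.79-fold higher at 18 months in SI-Exos (7.27 to 13.4). For the strand of the opposite arm, the known miR-29b-3p, the tables hold 27 and 6 reads in SI-Exos and 12 and 24 in serum exosomes.

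Several others have mature sequences that match annotated miRNA genes but had few reads. Of those named next, only predicted-miR174-5p also had a transcript match of its listed hairpin. predicted-miR458-5p shares 21 bases with miR-669f-5p, matches Mir669f (chr2:10467248-10467268, plus strand) and is listed in serum exosomes alone. It had 8 and 19 reads, 2.54-fold higher at 18 months (1.06 to 6.70), and miR-669f-5p had 6 and 15 reads there. The call was lost under TMM factors, DESeq2 size factors, RPM totals and totals without the 5 most abundant miRNAs, with ratios of 3 to 18 months of 0.450, 0.421, 0.437 and 0.517. predicted-miR235-3p in Mir674 had 3 and 6 reads in serum exosomes, predicted-miR68-3p in Mir125a had 0 and 2, and predicted-miR288-3p in Mir139 had 1 and 0. predicted-miR174-5p and predicted-miR78-3p, which are not within 1 mismatch of a known miRNA of the tables, matched the annotated miRNA genes Gm23394 and, for the second, Gm23935, Gm24245 and Gm24270. The first had 1 and 0 reads in serum exosomes, and the second 1 and 0 in SI-Exos and 2 and 0 in serum exosomes. These last 5 were chosen after their values were seen, for the miRNA genes they match.

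The let-7 family, an abundant and conserved group of miRNAs known for timing development and restraining proliferation, was resembled by predicted-miR75-5p, which differs from let-7b-5p at 1 of its 18 bases and has the let-7 seed. It had 20 and 0 reads in SI-Exos and 13 and 6 in serum exosomes. In SI-Exos this was at least 2.24-fold higher at 3 months, while the serum ratio of 2.03 had an interval from 0.719 to 6.50 and was not called. The known let-7b-5p had 6404 and 993 reads in SI-Exos and 2527 and 4422 in serum exosomes. In all, 5 predicted miRNAs of SI-Exos carried the let-7 seed, with 38 and 4 reads together, and 3 of serum exosomes, with 24 and 19. One of these, predicted-miR29-5p, had 2 and 0 reads in SI-Exos and 7 and 11 in serum exosomes, a serum ratio of 0.595 (0.196 to 1.68).

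Other close relatives of abundant known miRNAs differed from them at 2 bases. predicted-miR202-3p has the seed of miR-22-3p and had 1 read at each age in SI-Exos and 20 and 10 in serum exosomes, a serum ratio of 1.87 (0.836 to 4.48). The known miR-22-3p had 46992 and 12134 reads in serum exosomes, so the predicted form was small beside it at both ages. predicted-miR249-5p has the seed of miR-27a-3p, with 3 and 0 reads in SI-Exos and 8 and 12 in serum exosomes, a serum ratio of 0.624 (0.221 to 1.66). Neither was called in either source, except that predicted-miR202-3p was called higher at 3 months in serum exosomes with totals without the 5 most abundant miRNAs (ratio 2.45).

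The largest family of simple repeats that share a run of bases had 5 members, made almost wholly of G and U. They overlap the known miR-466i-5p over at least 16 bases without a mismatch, and one of them, predicted-miR327-5p, recurs in transcripts of 2247 annotated genes. predicted-miR186-5p (18 bases) had 456 and 546 reads in SI-Exos and 13 and 2 in serum exosomes. It was 3.56-fold higher at 18 months in SI-Exos (3.14 to 4.04) and 6.08-fold higher at 3 months in serum exosomes (1.38 to 55.5). predicted-miR327-5p, also of 18 bases, had 270 and 231 reads in SI-Exos and 14 and 0 in serum exosomes. It was 2.54-fold higher at 18 months in the first (2.13 to 3.04) and at least 4.37-fold higher at 3 months in the second.

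A pair of 19-base forms contain both of these shorter sequences, yet their counts stood apart from each other. As with the overlaps of miR-3473b, reads may be divided between these names in a way that depends on the authors' counting. predicted-miR2-5p had 413 and 33 reads in SI-Exos and 2 and 3 in serum exosomes, and was 4.21-fold higher at 3 months in SI-Exos (2.95 to 6.20). predicted-miR489-3p had 130 and 120 reads in SI-Exos and 4 and 0 in serum exosomes, and was 2.75-fold higher at 18 months in SI-Exos (2.12 to 3.55). With the authors' RPM totals the SI-Exos ratios of 3 to 18 months of predicted-miR327-5p and predicted-miR489-3p became 1.09 and 1.01, and with DESeq2 size factors they were 0.562 and 0.521, so that neither was called. The SI-Exos ratio of predicted-miR186-5p was 0.780 with the RPM totals and was not called either. Together with predicted-miR236-5p (19 and 10 reads in SI-Exos, 2 and 9 in serum exosomes, chosen after its values were seen), the 5 repeats had 1288 and 940 reads in SI-Exos and 35 and 14 in serum exosomes. Their sum was 2.17-fold higher at 18 months in SI-Exos (1.99 to 2.36) and 2.34-fold higher at 3 months in serum exosomes (1.23 to 4.70). With the RPM totals, ratios of 3 to 18 months in SI-Exos are 2.78-fold larger. The summed ratio of 0.461 then turns, and the sum is higher at 3 months. The known miR-466i-5p had 140 and 154 reads in SI-Exos, 3.27-fold higher at 18 months (2.59 to 4.14), and 8 and 11 in serum exosomes. With the RPM totals its SI-Exos ratio of 0.306 stays lower at 3 months, but by under 2-fold.

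The complementary repeat of C and A was represented by predicted-miR214-3p, of 22 bases, within 1 mismatch of miR-466f-3p and found in transcripts of 1899 genes. It had 192 and 366 reads in SI-Exos and 28 and 7 in serum exosomes. This was 5.67-fold higher at 18 months in SI-Exos (4.75 to 6.79) and 3.74-fold higher at 3 months in serum exosomes (1.60 to 10.1). predicted-miR327-3p, from the opposite arm of the hairpin that gives predicted-miR327-5p and chosen after its values were seen, had 17 reads at each age in SI-Exos and 0 and 2 in serum exosomes. It was 2.97-fold higher at 18 months in SI-Exos (1.43 to 6.20), a call lost with the RPM totals (ratio of 3 to 18 months 0.934).

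The remaining repeats with at least 10 reads reached that level in SI-Exos only. predicted-miR118-5p, an 18-base repeat of A and G found in transcripts of 742 genes, had 29 and 186 reads there and 3 and 1 in serum exosomes, and was 19.1-fold higher at 18 months in SI-Exos (12.9 to 29.3). Among the other repeats of A and G, predicted-miR351-5p had 0 and 50 reads in SI-Exos, at least 49.6-fold higher at 18 months, and no row in the serum table. predicted-miR424-5p, a longer form of 24 bases, had 4 and 26 reads in SI-Exos and 0 and 3 in serum exosomes, which in SI-Exos was 19.3-fold higher at 18 months (6.71 to 76.2). predicted-miR157-3p had 11 and 15 reads in SI-Exos and 5 and 0 in serum exosomes, 4.06-fold higher at 18 months in SI-Exos (1.74 to 9.76), a call lost with the RPM totals (ratio of 3 to 18 months 0.685). Of the 11 simple repeats measured in SI-Exos, 9 were called lower and 1 higher at 3 months, beside the 29.4% and 32.7% of all measured miRNAs. With DESeq2 size factors 6 were called lower, and with the authors' RPM totals 4. The shares of all measured miRNAs given here hold for totals of miRNA reads only. In serum exosomes 3 of the 13 simple repeats were measured and all 3 were called higher, beside 18.3%. These 3 reached 10 reads at 3 months only, so the minimum of reads favoured that direction. The other repeats stayed under 10 reads there. Some had more reads at 18 months, as predicted-miR236-5p (2 and 9), and some more at 3 months, as predicted-miR421-5p (8 and 1).

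The snoRNAs guide chemical modification and processing of ribosomal RNA in the nucleolus, and fragments of them are common in small RNA libraries. predicted-miR220-5p, of 25 bases, lies in the snoRNA gene Gm26224 inside a retained-intron transcript of Gas5 (chr1:161035401-161035425, plus strand). Gas5 is a host gene whose introns carry several snoRNAs. It had 443 and 39 reads in SI-Exos and 0 and 2 in serum exosomes. Its level was 2088 and 547 CPM in SI-Exos, 3.82-fold higher at 3 months (2.75 to 5.44).

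The other abundant snoRNA match was predicted-miR205-5p, of 23 bases, found in the 4 U3 genes Rnu3b1, Rnu3b2, Rnu3b3 and Rnu3b4 on chromosome 11 and in the snoRNA genes Gm23927 and Gm24949. The U3 snoRNA is needed for cleavage of the ribosomal RNA precursor. For Rnu3b1 the match is at chr11:87443429-87443451 on the plus strand. The listed hairpin of predicted-miR205-5p matched no annotated transcript. predicted-miR205-5p had 14 and 0 reads in SI-Exos and 193 and 28 in serum exosomes. It was at least 1.57-fold higher at 3 months in SI-Exos and 6.45-fold higher in serum exosomes (4.32 to 9.96), and was the only predicted miRNA called higher at 3 months in both sources. Both of these snoRNA matches were thus called higher at 3 months where they were abundant, and their main source differed, SI-Exos for predicted-miR220-5p and serum for predicted-miR205-5p.

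The other members of this kind had at most 6 reads in a library. Those named next were chosen after their values were seen, for their place in the annotation. predicted-miR100-5p matches the mitochondrial tRNA gene mt-Tp, though its listed hairpin does not, and had 6 and 0 reads in SI-Exos and 0 and 2 in serum exosomes. predicted-miR389-3p in Snora65 had 0 and 2 reads in serum exosomes and predicted-miR347-5p in the snoRNA Gm24455, within Taf1d, had 1 and 0. Both arms of one predicted hairpin, predicted-miR44-5p and predicted-miR44-3p, shared matches to several snoRNA genes and had 0 and 1 and 0 and 2 reads in serum exosomes.

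Mature tRNAs carry the bases CCA at their 3′ end. predicted-miR450-5p ends in this way and had 17 and 7 reads in SI-Exos and 25 and 23 in serum exosomes. Its ratios of 3 to 18 months were 0.817 (0.322 to 2.33) and 1.02 (0.554 to 1.87), and it was not called in either source. No annotated transcript matched it exactly, and tRNA genes of the nucleus were not searched here. With its 3 relatives by that ending, the kind had 33 and 36 reads in serum exosomes, 3.07% and 11.8% of the predicted reads.

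The GC-rich kind held the leading predicted miRNA of serum exosomes, predicted-miR365-5p, an 18-base sequence of 94.4% G and C without an exact match in any annotated transcript. It had 25 and 208 reads in SI-Exos and 541 and 27 in serum exosomes. The levels were 118 and 2915 CPM in SI-Exos and 650 and 34.7 CPM in serum exosomes. It was 24.7-fold higher at 18 months in SI-Exos (16.3 to 39.1) and 18.7-fold higher at 3 months in serum exosomes (12.7 to 28.7). A 19-base sequence that contains it, predicted-miR433-5p (chosen after its values were seen), had 32 and 21 reads in SI-Exos and 1 and 0 in serum exosomes. Its SI-Exos ratio of 3 to 18 months of 0.512 (0.286 to 0.935) was not called. With the RPM totals that ratio turned to 1.42.

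predicted-miR112-3p, also 94.4% G and C, followed the same order with 22 and 92 reads in SI-Exos and 42 and 2 in serum exosomes. It was 12.4-fold higher at 18 months in SI-Exos (7.74 to 20.8) and 19.6-fold higher at 3 months in serum exosomes (5.11 to 168). predicted-miR72-3p contains all of its bases and 1 more, and had 27 and 0 reads in SI-Exos, at least 3.03-fold higher at 3 months, with no row in the serum table. The shorter and the longer form were therefore called in opposite directions in the same libraries. Here too, the authors' counting may decide how reads are divided between overlapping names. Such pairs, in which 1 predicted miRNA contains another and both were measured, numbered 8 in SI-Exos, and in 6 the longer form had the higher ratio of 3 to 18 months. Some forms belong to several pairs, and the pairs were examined after the values were seen.

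Other GC-rich sequences went in either direction in SI-Exos. predicted-miR142-3p had 38 and 213 reads there and 5 and 3 in serum exosomes, and was 16.7-fold higher at 18 months in SI-Exos (11.8 to 24.2). A relative that shares a run of at least 14 bases with it, predicted-miR101-5p, had 29 and 0 reads in SI-Exos, at least 3.25-fold higher at 3 months. predicted-miR24-5p, made of G and C only, had 104 and 12 reads in SI-Exos and 9 and 0 in serum exosomes, 2.91-fold higher at 3 months in SI-Exos (1.60 to 5.82). Its sequence occurs in transcripts of Hnrnpd, Taf4 and Zfp654. predicted-miR143-3p, with a match in Foxe1 (chr4:46344274-46344291, plus strand), had 25 and 0 reads in SI-Exos, at least 2.80-fold higher at 3 months, and 1 and 6 in serum exosomes. Of the 10 GC-rich ones measured in SI-Exos, 5 were called higher and 3 lower at 3 months, beside 32.7% and 29.4% of all measured miRNAs.

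Among the sequences without any of these features, predicted-miR328-5p was the most abundant, with 69 and 379 reads in SI-Exos and no row in the serum table. It was 16.3-fold higher at 18 months (12.6 to 21.4). Its 22 bases match transcripts of 11 genes, among them 2810433D01Rik, Bc1, Ccdc36 and Cnot3. The match therefore does not single out a gene, and the listed hairpin matched no annotated transcript. predicted-miR308-5p, of 23 bases and without a transcript match, had 20 and 0 reads in SI-Exos, at least 2.24-fold higher at 3 months.

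predicted-miR380-5p went in opposite directions in the 2 sources in the reverse order. It had 51 and 0 reads in SI-Exos, at least 5.72-fold higher at 3 months, and 10 and 22 reads in serum exosomes, 2.35-fold higher at 18 months (1.07 to 5.56). With TMM factors, DESeq2 size factors, RPM totals and totals without the 5 most abundant miRNAs the serum call did not hold, with ratios of 3 to 18 months of 0.485, 0.455, 0.471 and 0.558. Its 18 bases match 1 annotated gene, the antisense transcript Gm29480 (chr1:92842577-92842594, minus strand). Its listed hairpin matched no annotated transcript. predicted-miR474-3p, which has no transcript match, had 2 and 1 reads in SI-Exos and 14 and 19 in serum exosomes, a serum ratio of 0.689 (0.320 to 1.45).

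Only 9 predicted miRNAs were measured in both sources. Of these, 5 were called lower at 3 months in SI-Exos and higher in serum exosomes, 1 was called the other way round (predicted-miR380-5p), 1 was called higher in both (predicted-miR205-5p), none was called lower in both, and the other 2 were not called in at least 1 source. Among all 156 miRNAs measured in both sources, 6.41% were called lower in SI-Exos and higher in serum exosomes, and 8.97% the other way round. With the authors' RPM totals the 5 became 3, beside 3.85% of all 156, since predicted-miR186-5p and predicted-miR327-5p lost their SI-Exos calls. With DESeq2 size factors the 5 became 4, beside 5.77%. The call of predicted-miR380-5p in serum exosomes was lost with both of these, with TMM factors and with totals without the 5 most abundant miRNAs. Levels also differed between the sources. Of the 42 predicted miRNAs listed in both tables, 33 had the higher CPM in SI-Exos at 3 months and 29 at 18 months (a single read was worth more CPM in SI-Exos). Of the 9 measured in both, 7 and 6 had the higher CPM in SI-Exos. The tables share no library, and source and library cannot be told apart.

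**Figure D5:**
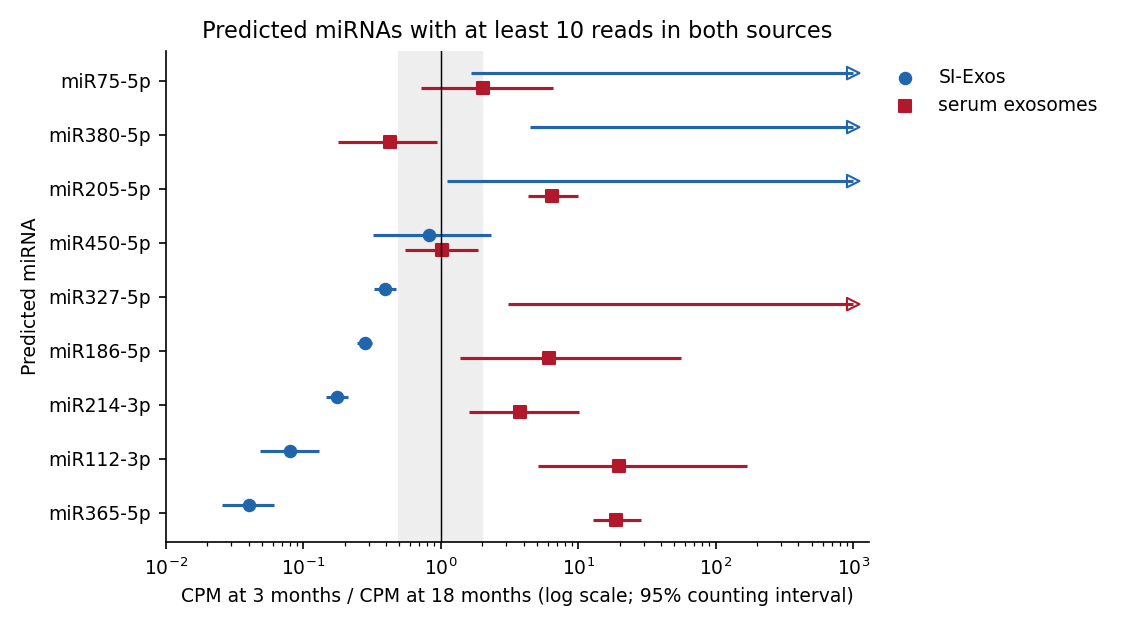
Level at 3 months over that at 18 months, as a ratio of CPM on a log scale, with exact 95% counting intervals, for the 9 predicted miRNAs measured in both SI-Exos (blue) and serum exosomes (red); open arrowheads at the right edge stand for 0 reads at 18 months, and the grey band marks ratios under 2-fold. For 5 sequences the SI-Exos interval lies below 1 and the serum interval above 1, and for predicted-miR380-5p the order is reversed.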

How the data were processed

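Counts of reads on each mature miRNA were deposited by the authors, with mature and hairpin sequences, for 4 libraries of exosomal small RNA. Per the labels, reads were processed with Bowtie2 2.2.9 and GRCm38, and no source used here gives the settings. The authors' deposited RPM values gave back library totals, used as an alternative. The deposited fold changes and p-values were not used. Members were taken by name, and members and lists were chosen with earlier results of these data known. The prefix of their names was replaced. Ratios and exact (Clopper-Pearson) 95% intervals were computed in Python 3.11.15 (scipy 1.17.1). For log2 ratios 0.5 reads were added. A floor of 3 reads replaced 0 in values given as at least so many fold. The calling rule was tested on simulated data. Named were the 8 with most reads per library, called ones with at least 100 reads, the 5 farthest from 1 per direction among the other called ones, and those measured in both sources. Alternatives used edgeR 4.0.16 and DESeq2 1.42.0 factors. A genome search was replaced by GENCODE M21 transcripts, on their own strand, and hairpins were folded with RNAfold 2.7.2. The kinds of sequence were formed after the data were seen.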

Additional observations from a re-analysis of the deposited data

Results flagged for a closer look

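The share of predicted miRNAs moved in opposite directions with age in the 2 sources, with a ratio of 3 to 18 months of 0.160 in SI-Exos and 3.29 in serum exosomes. Of the 9 members measured in both sources, 6 were called in opposite directions, beside 15.4% of all 156 miRNAs measured in both. With the authors' RPM totals 3 of the 6 were left (13.5% of all), since predicted-miR186-5p and predicted-miR327-5p lost the call in SI-Exos (ratios 0.780 and 1.09) and predicted-miR380-5p the call in serum exosomes (0.471). With totals of miRNA reads, the ratios in SI-Exos and serum exosomes were 0.0404 and 18.7 for predicted-miR365-5p, 0.0804 and 19.6 for predicted-miR112-3p, 0.281 and 6.08 for predicted-miR186-5p, and 0.176 and 3.74 for predicted-miR214-3p. For predicted-miR327-5p they were 0.393 and at least 4.37, and for predicted-miR380-5p at least 5.72 and 0.425. With 1 library per group the difference between the sources was not tested.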

How the results depend on the processing

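The share of predicted miRNAs kept its direction between ages in both sources under every denominator and subset tried. In 3m-SI-Exos and 18m-SI-Exos it was 2.48% and 17.2% of totals without the 5 most abundant miRNAs, 0.0181% and 0.0408% of the authors' RPM totals, 1.29% and 4.36% without the most abundant predicted miRNA of each library and 0.496% and 1.41% without simple repeats and sequences close to a known miRNA. In 3m-serum-exos and 18m-serum-exos the same 4 choices gave 0.457% and 0.106%, 0.00760% and 0.00208%, 0.0641% and 0.0356%, and 0.114% and 0.0290%, and a minimum of 10 reads gave 0.113% and 0.0242%. In SI-Exos, the authors' RPM totals left 11 called lower at 3 months in place of 17, with predicted-miR327-5p and predicted-miR489-3p turned to ratios of 1.09 and 1.01, and a minimum of 50 reads left 4 called higher in place of 11. In serum exosomes, 0 in place of 2 were called lower under TMM factors, DESeq2 size factors, RPM totals, totals without the 5 most abundant, a minimum of 50 reads and a ratio of 4. A minimum of 1 read gave 10 called higher there in place of 6, and one of 50 reads gave 2. These counts under other settings are given without the share over all measured miRNAs. A minimum of 10 reads left 31 and 23 detected in SI-Exos and 11 and 9 in serum exosomes, where 3 reads left 35 and 29. Weighting by reads moved the median G and C to 66.7% in SI-Exos and 68.2% in serum exosomes. In serum exosomes the median length fell from 20 to 18 bases both with that weighting and with a minimum of 10 reads. Allowing 0 or 2 mismatches in place of 1 gave 14 or 35 resemblances to known miRNAs. Of the named ratios under other totals, 88 of 95 values in SI-Exos and 56 of 65 in serum exosomes kept their call. In comparisons chosen after the data were seen, RPM totals left 3 of 6 opposite calls between the sources, beside 13.5% of all 156. They also left 4 of 9 lower calls of simple repeats in SI-Exos. Without the predicted miRNA with the most reads in a source, sequences of 18 bases held 44.7% and 56.6% of predicted reads in SI-Exos and 33.6% and 43.9% in serum exosomes. The cause of these changes was not tested. No mature sequence was listed more than once in a table or equal to that of a known miRNA, so those alternatives changed no value. No paired analysis was possible because each group has 1 library. Depth limits most members, since 3 reads stand for 42.0 CPM in 18m-SI-Exos and 14.1, 3.61 and 3.85 CPM in the other libraries, and a member absent from a library may lie under that floor.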
